A study of Mus musculus with 44 samples.

Results

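Monocytes and microglia sorted from the contused mouse spinal cord were compared at the late times of days 3 and 7 after injury. The comparison took every monocyte library of those days, 4 in all, against every microglia library of the same days, also 4, out of 44 libraries in the series, and it covered the 8218 named genes of the in vivo table. Mice were of the strain C57BL/6. All 8 libraries came from mice given a laminectomy at T12 followed by a contusion of 200 kdyn from an Infinite Horizon impactor, and the groups differed only in the sorted cell and the day. Each cell type had 2 libraries at day 3 and 2 at day 7. The labels give no surface marker, gate or reporter for the sort, and no age or sex. They do not say whether replicate libraries came from separate or pooled mice, and p-values therefore speak only to the variation among these libraries. The cells of 16 h and day 1 (4 monocyte and 4 microglia libraries) were used as comparisons. So were cultured bone marrow macrophages and newborn microglia at 0 h of TGFb1 (2 libraries each). Their labels give TGFb1 at 100 ng/ml, at 0 h as well.

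Microglia are the resident macrophages of the brain and spinal cord. They arise from yolk sac precursors, renew themselves locally and carry a transcript signature set by the nervous tissue, with Tmem119, P2ry12, Olfml3, Sparc and Cx3cr1 among its best known genes. Monocytes are made in the bone marrow, enter the injured cord from the blood through Ccr2 and adhesion receptors, and turn into macrophages that can lose monocyte genes such as Ly6c2 and Plac8 and resemble microglia in shape and surface markers. Neutrophils, short-lived granulocytes that enter the same lesion, fill their granules with proteins such as lactoferrin and cathelicidin and hold large amounts of S100a8 and S100a9 transcripts.

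The 2 cell types were sequenced to very different depths. The monocyte libraries held an estimated 132117 to 671586 reads, and the microglia libraries 31249 to 82702 reads. Between 7.37% and 18.5% of the genes had no read in a monocyte library, against 29.8% to 48.6% in a microglia library. The deposited values are reads scaled by 1 factor per library, and a gene with no read is listed at exactly 1. Because 1 read was worth 0.184 to 0.85 in monocytes and 1.76 to 4.15 in microglia, a monocyte value below 1 holds reads while a value of 1 holds none. Across genes, the monocyte libraries correlated with each other at a Pearson r of 0.804 to 0.918. The microglia libraries correlated with each other at 0.457 to 0.580 and with the monocyte libraries at 0.554 to 0.667, so the shallower microglia libraries were no more like each other than they were like the monocyte libraries.

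The labels were checked against marker genes. The 36 measured monocyte genes summed to 2.07% to 2.79% of the total in monocytes and to 1.20% to 1.23% in microglia, with no overlap. The 36 measured microglia genes summed to 0.652% to 1.04% in monocytes and to 0.814% to 1.96% in microglia, and here the groups overlapped, since day 3 replicate 1 of the microglia lay below 3 of the 4 monocyte libraries. The 43 measured defining neutrophil genes took up 0.598%, 0.269%, 0.639% and 0.716% of the total in monocytes, against 18.4%, 5.02%, 16.2% and 15.7% in microglia, in the order day 3 replicates 1 and 2, then day 7 replicates 1 and 2. That order holds for every set of 4 values below. Of these neutrophil genes, 7 to 11 had no read in a monocyte library, against 0 to 8 in a microglia library. The microglia libraries thus carried neutrophil transcripts in a share that was smallest in day 3 replicate 2, and the genes known from neutrophils have a paragraph of their own. Genes that neutrophils share with other cells also count within the functional lists below, where each such gene is pointed out.

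**Figure D1:**
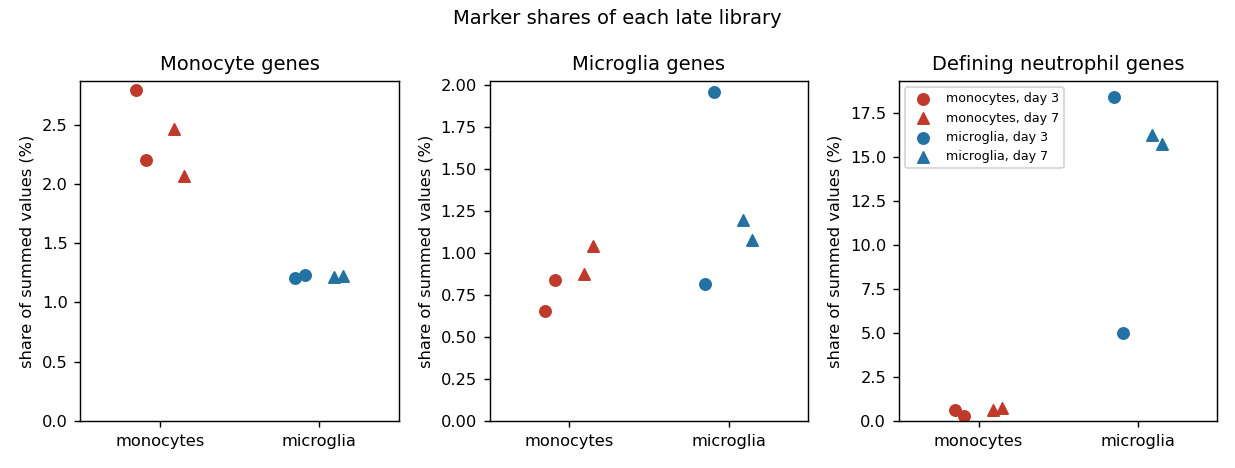
Share of each library's summed values (%) taken by the monocyte genes, the microglia genes and the defining neutrophil genes, for 4 monocyte libraries (red, left) and 4 microglia libraries (blue, right); circles are day 3 and triangles day 7. The monocyte genes separate the groups, the microglia genes do not, and the neutrophil genes reach 18.4% in a microglia library against at most 0.716% in monocytes.

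Differences were tested with limma on log2(value + 1), with p-values adjusted by the Benjamini-Hochberg method over all 8218 genes and a gene called at an adjusted p under 0.05. A log2 difference is monocytes over microglia throughout, so a positive one is higher in monocytes. The added 1 shrinks the change of genes with low values. A gene with no read is listed at 1, which is below the worth of 1 read in microglia and above it in monocytes. Differences of genes with low values can therefore be shifted either way. Of 8218 genes, 213 (2.59%) were called, 104 (1.27%) higher and 109 (1.33%) lower in monocytes, and 1321 had an unadjusted p under 0.05. In 84 of the 104 and 87 of the 109, the 4 libraries of one cell type all lay above the 4 of the other, which 6.19% of all genes did in the direction of monocytes and 2.45% in that of microglia. Of the lower genes, 26 were defining neutrophil genes, 6 more were genes that neutrophils share with monocytes, and 77 were on neither list. Of the higher genes, 102 were on neither list. In 12 higher genes no microglia library had a read, and in 4 lower genes no monocyte library had one. No fold is given for such a gene, because it would depend on the number added before the log. In bulk libraries, fewer cells of a type and less RNA per cell cannot be told apart. The count rested on single libraries: it was 85 to 111 without any one of the monocyte libraries, lowest without day 3 replicate 2, and it was 358, 392 and 374 without microglia day 3 replicate 1, day 7 replicate 1 and day 7 replicate 2. Within day 3 alone 75 genes were called, and within day 7 alone 76. With values under 5 raised to 5, 81 genes were higher and 126 lower in monocytes. The median difference over all genes was then −0.04, against 0.1 in the main fit.

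**Figure D2:**
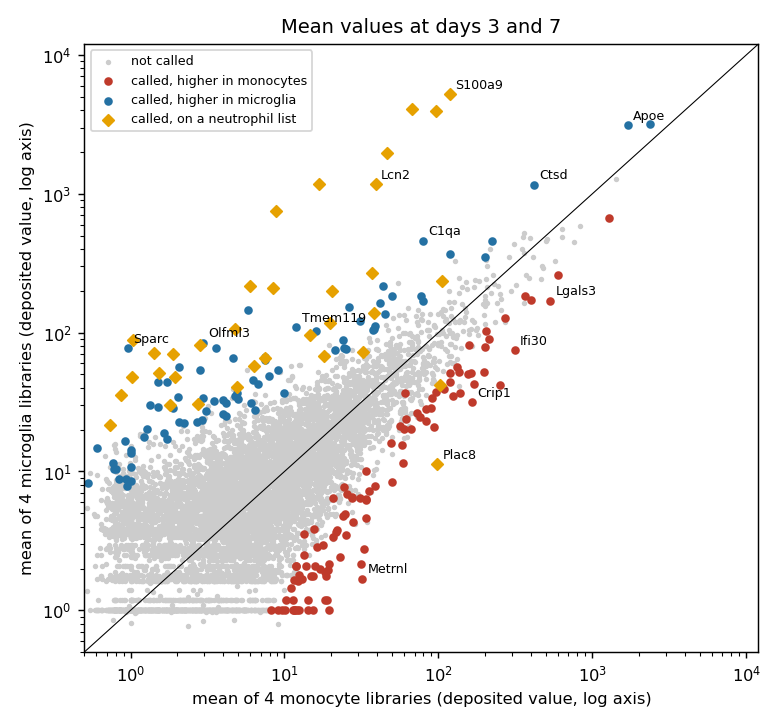
Mean deposited value of each gene in the 4 monocyte libraries (x, log axis) and the 4 microglia libraries (y, log axis); the line marks equal means, and called genes are coloured by direction or, where they are on a neutrophil list, as orange diamonds. The highest diamonds are granule and S100 genes such as S100a9 and Lcn2, and Sparc, Olfml3, Tmem119 and C1qa lie on the microglia side below them.

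The largest differences on the monocyte side fell in genes of varied function. Metrnl, which encodes the secreted protein meteorin-like, had values of 38.8, 29.5, 31.4 and 27.8 in monocytes, against 1, 1, 3.76 and 1 in microglia (log2 difference 3.71, SE 0.60, adjusted p = 0.000266). Metrnl therefore had a read in a single microglia library and never overlapped. Itgax, the integrin chain CD11c of dendritic cells and activated macrophages, stood at 22.2, 59.1, 16.1 and 37.5 in monocytes, against 1, 4.02, 1 and 12.5 in microglia (2.93, SE 0.73, adjusted p = 0.0235). Prcp, a lysosomal prolylcarboxypeptidase, was higher by 2.82 (SE 0.62, adjusted p = 0.00922), and Lipa, the lysosomal acid lipase, by 2.68 (SE 0.75, adjusted p = 0.0493). Apoc2, the cofactor of lipoprotein lipase, was higher by 2.70 (SE 0.71, adjusted p = 0.0336). Ndufb10, a subunit of respiratory complex I, was higher by 2.91 (SE 0.71, adjusted p = 0.0212) and Capza2, an actin filament capping protein, by 2.79 (SE 0.73, adjusted p = 0.0331). All 7 had 4 monocyte values above the 4 microglia values, which the rule that names them required. With 1 library left out, Metrnl kept its call in all 8 fits, Prcp lost it without monocyte day 3 replicate 2 (adjusted p = 0.0852), and Itgax, Ndufb10, Capza2, Apoc2 and Lipa lost it in 5 to 7 of 8 (highest adjusted p 0.175, 0.128, 0.137, 0.192 and 0.241).

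Of 9 measured genes of the Ms4a family, a group assembled after their values were seen, 4 were higher in monocytes (44.4%, against 1.27% of all genes) and none lower. The count was 2 to 4 with 1 library left out, being 2 without monocyte day 3 replicate 1 or day 7 replicate 1, and it was 0 within day 3 alone and 3 within day 7 alone. The family encodes small proteins that cross the membrane several times, and Ms4a4c, Ms4a6b and Ms4a6c are known from blood monocytes of the mouse. Ms4a6c had values of 21.5, 19.3, 47.6 and 37.5 in monocytes, against 1, 2.51, 1 and 4.15 in microglia (3.38, SE 0.60, adjusted p = 0.000887). Ms4a4c had 39.7, 18.7, 39.1 and 34.1 in monocytes, against 7.04, 1, 1 and 2.08 in microglia (3.37, SE 0.67, adjusted p = 0.00323). Ms4a6b had 41.3, 22.8, 26.8 and 21 in monocytes, against 6.16, 8.04, 1 and 2.08 in microglia (2.65, SE 0.58, adjusted p = 0.00783). No value of these 3 genes overlapped between the cell types. The fourth was Ms4a7, a gene of tissue macrophages (2.34, SE 0.65, adjusted p = 0.0445). Ms4a6d differed by 0.74 (SE 0.59, adjusted p = 0.556). Ms4a4c and Ms4a6c kept their calls with any 1 library left out, Ms4a6b lost its call without monocyte day 3 replicate 1 or day 7 replicate 1 (highest adjusted p 0.088) and Ms4a7 in 6 of 8 such fits (highest 0.195).

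Ms4a6b and Ms4a6c lie close together on chromosome 19, in a row that RefSeq orders as Ms4a7, Ms4a4a, Ms4a4c, Ms4a4b, Ms4a6c, Gm8369, Ms4a6b, Ms4a4d and Ms4a6d among protein-coding genes. Their promoter windows, 250 bases before to 50 bases after the start, are shown because both genes were called and the windows hold a long stretch in common. Both are on the plus strand of GRCm38.p6, at chr19:11518309-11518608 for Ms4a6b and chr19:11469118-11469417 for Ms4a6c. Capitals mark the longest run of letters that both windows share.
Ms4a6b: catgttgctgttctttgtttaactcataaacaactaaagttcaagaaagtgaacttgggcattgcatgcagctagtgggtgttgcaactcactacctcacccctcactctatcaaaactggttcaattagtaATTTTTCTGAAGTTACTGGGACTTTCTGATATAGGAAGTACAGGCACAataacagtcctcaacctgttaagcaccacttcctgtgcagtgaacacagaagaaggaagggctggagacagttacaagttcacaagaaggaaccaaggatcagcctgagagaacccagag
Ms4a6c: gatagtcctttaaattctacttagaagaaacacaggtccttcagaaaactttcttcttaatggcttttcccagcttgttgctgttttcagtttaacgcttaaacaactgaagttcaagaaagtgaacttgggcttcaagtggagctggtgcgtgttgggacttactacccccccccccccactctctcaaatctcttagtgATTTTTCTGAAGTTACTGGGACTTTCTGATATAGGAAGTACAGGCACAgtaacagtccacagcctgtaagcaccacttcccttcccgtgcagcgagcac
The shared run is 48 bases long, and the longest that either window shares with that of Ms4a4c is 8 bases. Related genes can exchange reads, and with a counting rule not given in the sources used here, how those matching both were split between Ms4a6b and Ms4a6c is uncertain.

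Of 36 measured genes of blood monocytes and of cells that enter tissue, 9 were called higher in monocytes (25.0%, against 1.27% of all genes and 4.19% of the 1576 genes with a mean of at least 20) and none lower. Their median log2 difference was 1.00, against 0.10 over all genes, and 32 of the 36 were positive. Crip1, a small LIM-domain protein, had 138, 144, 223 and 158 in monocytes, against 29.9, 20.1, 63.9 and 12.5 in microglia (2.58, SE 0.47, adjusted p = 0.00134). Thbs1, the matrix protein thrombospondin 1 that can activate latent TGFb, had 271, 242, 67.1 and 96.0 in monocytes, against 56.3, 28.1, 56.4 and 29.1 in microglia (1.81, SE 0.35, adjusted p = 0.00232). F13a1, the A chain of coagulation factor XIII, had 157, 52.9, 216 and 125 in monocytes, against 36.9, 48.2, 41.4 and 20.8 in microglia (1.77, SE 0.40, adjusted p = 0.0113). In all 3 the lowest monocyte library was above the highest microglia library. Plac8, which neutrophils share with monocytes, was also higher, by 3.39 (SE 0.69, adjusted p = 0.00407), with 98.1, 61.4, 154 and 79.5 in monocytes, against 21.1, 8.04, 15 and 1 in microglia. The others were Ms4a4c, described above, Emilin2, which neutrophils also share, Cd44, Itga4 and Ly6a. The count was 4 to 9 with 1 library left out, being 4 without monocyte day 7 replicate 1 and 5 without either monocyte library of day 3. Without monocyte day 7 replicate 1, Plac8 had an adjusted p of 0.0543 and F13a1 one of 0.103, and without monocyte day 3 replicate 1 F13a1 had one of 0.159.

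Adhesion molecules behind that count included Cd44, the hyaluronan receptor, at 47.6, 62.5, 51 and 35.3 in monocytes, against 10.6, 4.02, 37.6 and 12.5 in microglia (1.90, SE 0.44, adjusted p = 0.0151). The groups overlapped in Cd44 through 1 library each. Itga4, the integrin chain that binds VCAM-1, had 12, 14.4, 10.2 and 20.3 in monocytes and no read in any microglia library (adjusted p = 0.0227). With Itgax, 3 of 22 measured integrin and adhesion genes were higher (13.6%, against 1.27% of all genes). In the other direction 2 were lower (9.09%, against 1.33%), namely Cd81 and Cd9, of which neutrophils share Cd9. With 1 library left out, the count was 0 to 3 in each direction. Cd44 and Itga4 lost their calls in 4 and 5 of the 8 fits with a library left out (highest adjusted p 0.107 and 0.129).

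The best known monocyte markers did not all separate the cells. Ccr2, the receptor for Ccl2, had 77.6, 65.0, 227 and 179 in monocytes, against 44.0, 28.1, 30.1 and 62.3 in microglia, and although no library overlapped it missed the threshold (1.59, SE 0.49, adjusted p = 0.0806). Ly6c2 had 111, 64.5, 113 and 84.4 in monocytes, against 103, 72.3, 92.1 and 70.6 in microglia (0.12, SE 0.34, adjusted p = 0.921). Ly6c2, the marker of inflammatory monocytes, overlapped fully, and so did its near-identical neighbour Ly6c1 (0.06, SE 0.70, adjusted p = 0.998). The 95% interval of the Ly6c2 difference was −0.57 to 0.82. Reads of Ly6c1 and Ly6c2 may have been split between them.

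Among S100, annexin and cytoskeleton genes the direction was mixed. Of 29 measured, 6 were higher (20.7%, against 1.27% of all genes) and 3 lower (10.3%, against 1.33%), with a median of 0.28. Lgals3, or galectin 3, a lectin of activated macrophages, had 710, 792, 314 and 305 in monocytes, against 160, 165, 139 and 216 in microglia (1.52, SE 0.21, adjusted p = 2.84e-05). S100a10, the partner of annexin A2, had 70.2, 60.1, 72.2 and 63.8 in monocytes, against 12.3, 1, 26.3 and 41.5 in microglia (2.35, SE 0.51, adjusted p = 0.00804). Both were separate in all libraries. Vim, the intermediate filament vimentin, was higher by 1.03 (SE 0.21, adjusted p = 0.00391) and Tpm4, a tropomyosin, by 2.72 (SE 0.57, adjusted p = 0.00597), each with overlapping libraries. S100a4 and Lgals1 were the other 2. On the other side, Anxa1, an annexin on the list of genes that neutrophils share, had 38.6, 35.0, 38.2 and 36.0 in monocytes, against 449, 141, 192 and 299 in microglia (−2.70, SE 0.31, adjusted p = 1.26e-06). Cnn2, the actin-binding calponin 2, was lower (−1.54, SE 0.30, adjusted p = 0.00232) and Actn1, alpha-actinin 1, likewise (−2.73, SE 0.54, adjusted p = 0.00289). Lgals3, Anxa1, Cnn2 and Actn1 kept their calls with any 1 library left out. Without monocyte day 7 replicate 1, Vim, Tpm4 and S100a10 did not (highest adjusted p over the fits 0.0544, 0.055 and 0.0555), Tpm4 was also lost without monocyte day 3 replicate 2, and S100a10 without monocyte day 3 replicate 1 or microglia day 3 replicate 2.

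Of 15 measured MHC class II and costimulation genes, 2 were called higher in monocytes (13.3%, against 1.27% of all genes) and none lower. Of the 15 differences, 14 were positive, and the median was 0.73. Within day 7 alone none was called and the median was 0.37, and with 1 library left out the count was 1 to 3 (3 without monocyte day 3 replicate 1; 1 without any other monocyte library or without microglia day 3 replicate 1 or day 7 replicate 1). Ifi30, a thiol reductase that unfolds antigens in endosomes, had 337, 423, 279 and 215 in monocytes, against 93.2, 80.4, 79.0 and 45.7 in microglia (2.06, SE 0.36, adjusted p = 0.000887). Ifi30 stood apart in every library and kept its call with any 1 left out. Cd74, the invariant chain of class II molecules, had 840, 1957, 1117 and 1248 in monocytes, against 384, 748, 778 and 751 in microglia (0.94, SE 0.24, adjusted p = 0.0264). Cd74 did not overlap, yet its call was lost in 6 of the 8 fits with a library left out (highest adjusted p 0.296). The class II chains H2-Aa (0.76, SE 0.26, adjusted p = 0.124) and H2-Eb1 (1.21, SE 0.36, adjusted p = 0.063) missed the threshold.

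Lysosomal and lipid genes moved both ways. Of 32 lysosomal and damage-associated genes, 4 were higher (Ctsc, Itgax, Spp1 and Lipa; 12.5%, against 1.27% of all genes) and 3 lower (Ctsd, Csf1 and Cd9, which neutrophils share; 9.38%, against 1.33%). Ctsc, the cathepsin that activates granule proteases, had 87.4, 102, 78.2 and 104 in monocytes, against 19.4, 8.04, 18.8 and 37.4 in microglia (2.27, SE 0.45, adjusted p = 0.00289). Ctsd, the aspartic lysosomal protease cathepsin D, had 417, 350, 310 and 593 in monocytes, against 730, 1543, 1245 and 1137 in microglia (−1.47, SE 0.23, adjusted p = 0.000198). Both cathepsins were free of overlap and kept their calls with any 1 library left out. Of 19 lipid genes, 2 were lower (10.5%) and 3 higher (15.8%), namely Apoc2, the cholesterol esterifying enzyme Soat1 (2.73, SE 0.67, adjusted p = 0.022) and the cholesterol exporter Abca1 (2.31, SE 0.62, adjusted p = 0.0388). Apoe, the main lipoprotein of glia and macrophages, was lower in monocytes, with 1004, 711, 2045 and 3057, against 1928, 2990, 3964 and 3544 in microglia (−1.04, SE 0.18, adjusted p = 0.000887). Its groups overlapped, and under quantile normalization the sign turned and the call was lost (0.33, adjusted p = 0.522). Dgat1, which makes triglycerides, was also lower (−2.64, SE 0.45, adjusted p = 0.000645). With a library left out, Soat1, Abca1, Cd9 and Csf1 lost their calls in 4, 6, 5 and 6 of 8 fits, with adjusted p up to 0.192.

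Hmox1, heme oxygenase, and Blvra, biliverdin reductase, work in succession on heme, and they were the 2 of 20 iron and heme genes that were higher in monocytes (10%, against 1.27% of all genes). Blvra had 13.1, 14, 8.5 and 14.3 in monocytes, against 1, 1, 1 and 4.15 in microglia (2.38, SE 0.66, adjusted p = 0.0447), and it lost its call in 7 of the 8 fits with a library left out (highest adjusted p 0.188). The late difference of Hmox1 was 2.00 (SE 0.51, adjusted p = 0.0265), lost in 6 of the 8 (highest adjusted p 0.164). The count of called members was 0 without any one of the monocyte libraries and without microglia day 3 replicate 2 or day 7 replicate 1, and 1 without microglia day 3 replicate 1. The values of Hmox1 are given with the days below.

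Genes for cytosolic ribosomal proteins, a group chosen after their values were seen, stood on the monocyte side. Of 75 measured, 73 had a positive difference, against 4469 of all 8218 genes. The median was 0.79, against 0.10 over all genes. Of the 75, 8 were called higher (10.7%, against 1.27% of all genes) and none lower. Rpl27a had 73.5, 112, 61.6 and 87.1 in monocytes, against 33.1, 30.6, 15.7 and 13.5 in microglia (1.87, SE 0.37, adjusted p = 0.00334). The groups did not overlap in Rpl27a, which had an adjusted p of 0.0506 without monocyte day 3 replicate 2. The count of called members was 1 without that library, 2 without any other monocyte library, and 5 to 14 without a microglia library, while the group's median stayed between 0.70 and 1.01 under every alternative. Ribosomal protein genes have many near-identical processed copies, so their counts are uncertain. The share of reads from neutrophils moved with this difference, at 0.269% to 0.716% of the total in monocytes and 5.02% to 18.4% in microglia, and its part in the result was not tested. After each library was rescaled without the neutrophil genes, 10 of the 75 were called and the median was 0.85.

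Of 36 measured genes of microglial identity, 6 were lower in monocytes (16.7%, against 1.33% of all genes and 5.90% of those with a mean of at least 20) and none higher. Their median log2 difference was −0.80, and 28 of the 36 were negative. Sparc, a secreted matrix-binding glycoprotein, was at 1, 1, 0.85 and 1 in monocytes, against 61.6, 161, 15 and 70.6 in microglia (−4.90, SE 0.83, adjusted p = 0.000563). Olfml3, a secreted olfactomedin-like protein, had 3.05, 1.66, 3.40 and 3.75 in monocytes, against 35.2, 213, 48.9 and 41.5 in microglia (−4.04, SE 0.78, adjusted p = 0.00263). Tmem119, a membrane protein of resident microglia, had 6.98, 11.6, 4.25 and 24.8 in monocytes, against 79.2, 185, 60.2 and 112 in microglia (−3.22, SE 0.69, adjusted p = 0.00694). The 3 genes were separate in all libraries, and Sparc had a read in only 1 of the 4 monocyte libraries. Serpine2, a protease inhibitor, had no read in any monocyte library and 10.6, 20.1, 11.3 and 12.5 in microglia (adjusted p = 0.00747). Fcrls, an Fc receptor-like protein, was lower as well (−2.91, SE 0.70, adjusted p = 0.0198), as was GPR56, an adhesion receptor (−2.56, SE 0.66, adjusted p = 0.0306). Of these 6, 5 had their highest microglia value in day 3 replicate 2, the library with the fewest neutrophil transcripts. Without that library the count of called members was 3 and Tmem119 missed the threshold. It was also 3 without monocyte day 3 replicate 2 or day 7 replicate 1, and the highest adjusted p of Tmem119 and Serpine2 over such fits were 0.0935 and 0.0506. Within day 7 alone no member was called, with a median of −0.58.

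Other well-known microglia genes did not pass the test at this depth. P2ry12, the purine receptor that guides microglial processes, was low in both, at 3.92, 2.76, 1 and 3.75 in monocytes and 3.52, 4.02, 15 and 1 in microglia (−0.51, SE 0.65, adjusted p = 0.749). Cx3cr1, the fractalkine receptor, had 17.7, 37.0, 92.1 and 119 in monocytes, against 52.8, 88.4, 82.7 and 116 in microglia (−0.64, SE 0.47, adjusted p = 0.506). The groups overlapped in both genes. Their 95% intervals were −1.84 to 0.82 for P2ry12 and −1.60 to 0.32 for Cx3cr1, so neither excludes a sizeable difference.

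Of the chains of C1q, which starts the classical complement pathway, C1qa and C1qc were lower in monocytes. C1qa had 52.5, 59.5, 77.3 and 127 in monocytes, against 281, 663, 496 and 394 in microglia (−2.54, SE 0.40, adjusted p = 0.000235). C1qc had 22.2, 33.5, 52.7 and 66 in monocytes, against 121, 406, 229 and 108 in microglia (−2.19, SE 0.40, adjusted p = 0.00115). Neither overlapped, and both kept their calls with any 1 library left out. C1qb, the third chain, had the same sign and overlapped (−0.94, SE 0.54, adjusted p = 0.387). These 2 were the called members among 13 complement genes (15.4%, against 1.33% of all genes), whose median was 0.09.

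**Figure D3:**
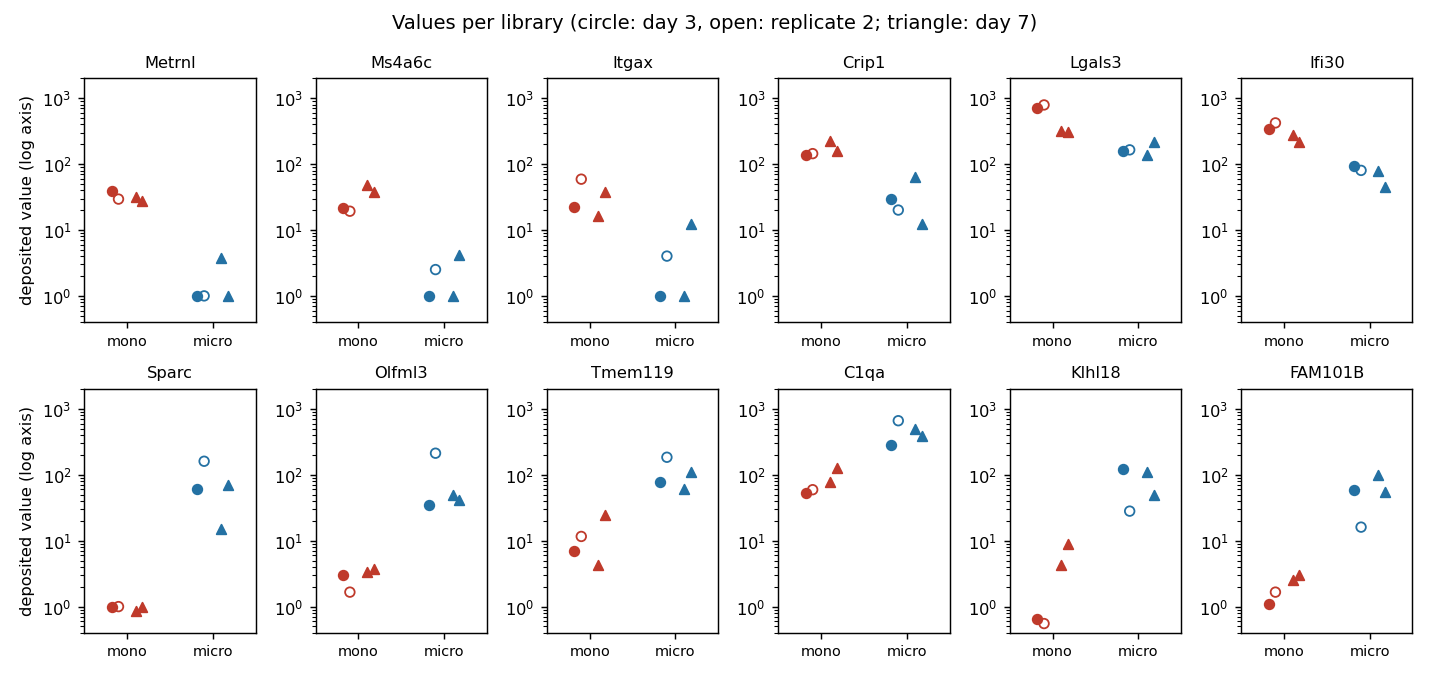
Deposited value (log axis) of 12 genes in each library, monocytes (red, left) and microglia (blue, right), with circles for day 3, open for replicate 2, and triangles for day 7. Sparc, Olfml3, Tmem119 and C1qa are highest in the open microglia circle, while Klhl18 and FAM101B are lowest there.

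Of the 10 largest differences on the microglia side outside the neutrophil lists, 3 were the identity genes Sparc, Olfml3 and Tmem119, and the other 7 follow. Klhl18, of the kelch-like family, had 0.654, 0.553, 4.25 and 9 in monocytes, against 121, 28.1, 109 and 49.8 in microglia (−4.29, SE 0.55, adjusted p = 8.46e-06). FAM101B, a regulator of filamins, had 1.09, 1.66, 2.55 and 3.00 in monocytes, against 59.8, 16.1, 97.8 and 54.0 in microglia (−4.03, SE 0.54, adjusted p = 1.77e-05). Inhba, the activin A subunit of the TGFb family, had 3.71, 0.737, 0.85 and 6 in monocytes, against 68.6, 12.1, 105 and 29.1 in microglia (−3.69, SE 0.60, adjusted p = 0.00031). In these 3 genes the lowest microglia value fell in day 3 replicate 2. Crispld2, a secreted cysteine-rich protein (−3.58, SE 0.53, adjusted p = 9.82e-05), and Pde2a, a phosphodiesterase (−3.15, SE 0.62, adjusted p = 0.00289), were lowest in the same library, at 24.1 and 8.04. Mapk13, the p38 delta kinase, was lower in monocytes too (−3.56, SE 0.65, adjusted p = 0.00134). Cd81, a tetraspanin, went with the microglia genes instead, at 28.1, 165, 33.8 and 37.4 in microglia and 2.25 to 9.76 in monocytes (−3.33, SE 0.79, adjusted p = 0.0174), and it lost its call without microglia day 3 replicate 2 and without 3 of the monocyte libraries (highest adjusted p 0.12). The other 6 kept theirs with any 1 library left out.

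Counted over all genes lower in monocytes, 30 of the 77 outside the neutrophil lists (39.0%) had their lowest microglia value in day 3 replicate 2 and 15 (19.5%) their highest. Of the 26 defining neutrophil genes lower in monocytes, 16 (61.5%) had their lowest value there and 1 (3.85%) its highest. Among the 1311 genes with a microglia mean of at least 20, the shares were 31.5% and 26.6%. Which of the 77 genes belong to microglia and which to the neutrophil transcripts in these libraries was not tested.

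The defining neutrophil genes were set apart, and 26 of 43 were lower in monocytes. S100a9, an alarmin that forms a dimer with S100a8, had 106, 41.8, 123 and 203 in monocytes, against 6933, 1507, 6137 and 6279 in microglia (−5.43, SE 0.41, adjusted p = 6.16e-06). Camp, the cathelicidin of specific granules, had 118, 12.2, 49.3 and 90.0 in monocytes, against 5121, 695, 5385 and 5017 in microglia (−5.92, SE 0.71, adjusted p = 0.000736). Retnlg, resistin-like gamma, had 4.80, 4.05, 5.95 and 20.3 in monocytes, against 767, 201, 1106 and 917 in microglia (−6.28, SE 0.38, adjusted p = 1.20e-12). Each of these was lowest in day 3 replicate 2 among the microglia. Also lower were S100a8 (−5.45, SE 0.47), the granule protein gene Ngp (−5.34, SE 0.42), lactoferrin or Ltf (−5.94, SE 0.39) and lipocalin 2 or Lcn2 (−4.96, SE 0.29), with adjusted p from 7.96e-13 to 2.02e-05. Cxcr2, the receptor that draws neutrophils, had 2.40, 0.368, 1 and 7.50 in monocytes, against 125, 68.3, 75.2 and 55.0 in microglia (−4.71, SE 0.50, adjusted p = 2.40e-07). These 26 made up 60.5% of the list, against 1.33% of all genes, and none was higher, with a median of −2.95 and a count of 24 to 27 with 1 library left out. Of 34 genes shared by neutrophils and monocytes, 6 were lower (Anxa1, G0s2, Alox5, Cxcl2, Hp and Cd9) and 2 higher (Plac8 and Emilin2). These were 17.6% and 5.88% of that list, against 1.33% and 1.27% of all genes.

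Of 40 measured transcription factors, 2 were higher in monocytes (5%, against 1.27% of all genes) and 3 lower (7.5%, against 1.33%). Among all genes with a mean of at least 20, 4.19% were higher and 5.90% lower. Of the 40 factors, 20 had a mean under 20 in both cell types, so that background does not match the list. Junb had 202, 172, 270 and 242 in monocytes, against 311, 526, 459 and 527 in microglia (−1.03, SE 0.21, adjusted p = 0.00335). Jund (−1.62, SE 0.39, adjusted p = 0.0203) and Klf2 (−1.64, SE 0.40, adjusted p = 0.0202) were lower as well, and all 3 were free of overlap. Id2, an inhibitor of basic helix-loop-helix factors that TGFb and BMP signals regulate, was higher, with 90.5, 112, 45 and 55.5 in monocytes, against 35.2, 16.1, 18.8 and 29.1 in microglia (1.55, SE 0.35, adjusted p = 0.011). Fosl2 was also higher (2.14, SE 0.57, adjusted p = 0.0374). Jund and Klf2 lost their calls in 4 of the 8 fits with a library left out, Fosl2 in 6 and Id2 in 2 (monocyte day 3 replicate 2 and day 7 replicate 2), with adjusted p up to 0.184. Junb kept its call.

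Signalling and effector lists held few called genes. Where 1 or 2 members of a list were called in a direction, they made up 2.33% to 7.69% of it. Of all genes, 1.27% were higher and 1.33% lower, and of genes with a mean of at least 20, 4.19% and 5.90%. These lists also hold members with a mean under 20, so the latter shares do not match them. Nothing is concluded from such counts. Of 17 chemokines, Ccl9 was higher (1.84, SE 0.35, adjusted p = 0.00196) and Cxcl2, which attracts neutrophils and is on their shared list, lower, with 45.1, 64.3, 17.8 and 24.4 in monocytes, against 111, 177, 130 and 137 in microglia (−1.99, SE 0.37, adjusted p = 0.00148). Of 16 chemotactic receptors, Cxcr2 was lower, as given above. Of 23 genes of TGFb signalling, 3 were higher (13%, against 1.27% of all genes) and none lower, with a count of 1 without monocyte day 3 replicate 2 or day 7 replicate 2. They were Thbs1, Id2 and LRRC33, a protein that holds latent TGFb on myeloid cells (2.13, SE 0.54, adjusted p = 0.0264). LRRC33 had 67.6, 60.1, 52.7 and 63.0 in monocytes, against 33.4, 109, 1 and 4.15 in microglia, so its difference lay at day 7 (4.19) and was near 0 at day 3 (0.08). Of 43 interferon response genes, the antiviral Mx1 alone was called (2.57, SE 0.66, adjusted p = 0.0284), and 37 differences were positive with a median of 0.98. Of the 43, 24 had a mean under 20 in both cell types. In a microglia library 8 to 14 of them had no read, against 0 to 2 in a monocyte library. The median of this list was −0.34 in the contrast of 16 h and day 1. Of 34 glycolysis and hypoxia genes, Gpi1 (−1.55, SE 0.30, adjusted p = 0.00222) and Slc2a3 (−2.71, SE 0.72, adjusted p = 0.0374) were lower. Of 34 phagocytic receptors, Clec4n was higher (2.53, SE 0.70, adjusted p = 0.0456), and of 26 matrix and protease genes, Thbs1 was higher and Sparc and Serpine2 lower. LRRC33, Mx1, Slc2a3 and Clec4n lost their calls in 5 to 7 of the 8 fits with a library left out, with adjusted p up to 0.295. Ccl9, Cxcl2 and Gpi1 kept theirs. The difference of Ccl9 was 3.10 at day 3 and 0.57 at day 7, and its groups overlapped.

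By limma no gene was called among 20 genes of alternative activation, 29 of cytokines and NF-kB feedback or 41 of the cell cycle. The smallest p belonged to the scavenger receptor Stab1 (2.10, adjusted p = 0.105) and the creatine-making enzyme Gatm (−1.70, adjusted p = 0.185) in the first, to Il16 (−1.88, adjusted p = 0.0713) and Il1b (−0.89, adjusted p = 0.189) in the second, and to Hmgb2 (−1.44, adjusted p = 0.121) and Pcna (1.74, adjusted p = 0.125) in the third. At an unadjusted p under 0.05 these lists held 2, 5 and 6 members.

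**Figure D4:**
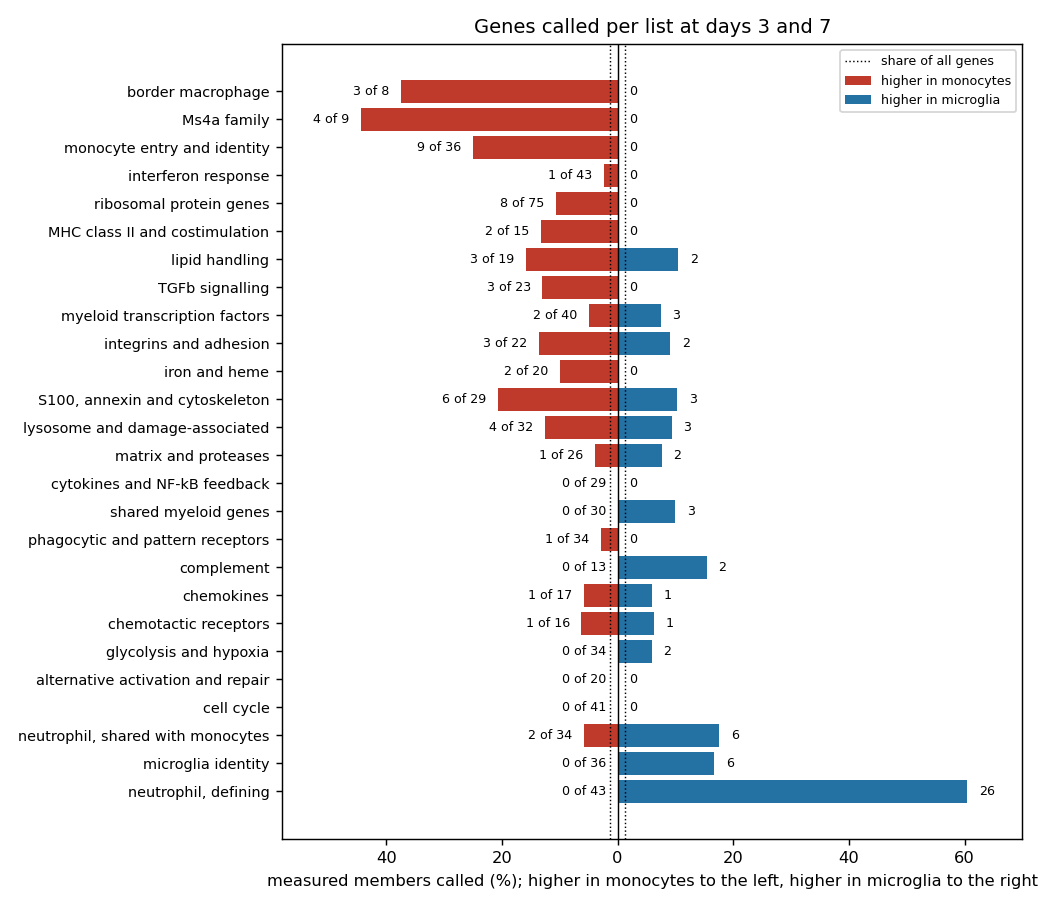
Share of each list's measured members called (%), higher in monocytes to the left and higher in microglia to the right, with counts at the bars; dotted lines are the shares of all genes, 1.27% and 1.33%, and lists are ordered by their median log2 difference. The defining neutrophil genes have 26 of 43 members on the microglia side, and the monocyte genes have 9 of 36 on the monocyte side.

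Of 30 measured genes that myeloid cells share, 3 were lower in monocytes (10%, against 1.33% of all genes) and none higher. The following 4 were picked from this list for an interval near 0, so their closeness is a description. Lyz2, lysozyme, had 1660, 1335, 1283 and 1389 in monocytes, against 1344, 812, 1679 and 1239 in microglia, a log2 difference of 0.20 with a 95% interval of −0.16 to 0.56. Tyrobp, the adaptor of Trem2, differed by 0.16 (interval −0.26 to 0.57) and Fth1, ferritin heavy chain, by 0.38 (interval −0.07 to 0.83). Actb, actin, met the same rule of an interval within 1 log2 unit of 0 and was called lower (−0.45, SE 0.12, adjusted p = 0.0335), but with quantile normalization it was called higher (0.73, adjusted p = 0.00842), so its direction depended on the scaling. Rac2 and Arpc1b, of actin remodelling, were lower too (−1.15, adjusted p = 0.0388 and −0.81, adjusted p = 0.0274) and lost their calls in 5 and 6 of the 8 fits with a library left out (highest adjusted p 0.225 and 0.154), as Actb did in 7 (0.136). Itgam, CD11b, had 156, 155, 136 and 101 in monocytes, against 303, 273, 271 and 149 in microglia and missed the threshold (−0.83, SE 0.24, adjusted p = 0.0577).

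Markers of other cells were near the floor with a few exceptions. In lymphocyte, astrocyte, neuron, endothelium, fibroblast and erythroid lists no gene was called among 6, 3, 2, 5, 2 and 3 measured, and each list summed to at most 0.0626% of a library. The smallest p in these lists belonged to Il7r and Cd79a, Aldh1l1 and Glul, Rbfox3 and Syt1, Egfl7 and Slc2a1, Acta2 and Col1a1, and Hbb-b1 and Hba-a2, with adjusted p of 0.311 or more. Of 8 border macrophage markers, F13a1, Ms4a7 and Clec4n were higher in monocytes (37.5%, against 1.27% of all genes), 6 of the 8 differences were positive and the median was 1.94. The list summed to 0.100% to 0.228% in monocytes and 0.0235% to 0.0574% in microglia, and its part in the results was not tested. Of the 8 markers, 7 had a mean under 20 in both cell types. The exception was F13a1, which is also among the monocyte genes above. In a microglia library 3 to 7 of the markers had no read, against 1 to 2 in a monocyte library. With 1 library left out the count was 0 to 2. Of 12 dendritic cell markers Flt3 was higher (2.15, SE 0.57, adjusted p = 0.0374), and of 6 oligodendrocyte markers Cnp, with 14.9, 21.2, 16.1 and 9 in monocytes and no read in microglia (adjusted p = 0.00445). The oligodendrocyte list summed to 0.337% to 1.17% in monocytes and 0.292% to 0.706% in microglia, and its part in the results was not tested. Of its 6 genes, 5, Cnp among them, had a mean under 20 in both cell types. The sums therefore rest mostly on 1 gene and do not measure oligodendrocyte transcripts as a set. Flt3 lost its call in 5 of the 8 fits with a library left out (highest adjusted p 0.241) and Clec4n in 7 (0.295).

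The contrast was then compared between the days. Of 8218 genes 1 (0.0122%) had a contrast at day 7 that differed from that at day 3, and 597 had an unadjusted p under 0.05. The test had a median standard error of 1.27, against 0.63 for the late contrast. The gene was Hmox1. It had 184 and 123 in monocytes of day 3, against 12.3 and 1 in microglia of day 3, and 28.9 and 21 in monocytes of day 7, against 30.1 and 70.6 in microglia of day 7. The monocyte over microglia difference was thus 4.88 at day 3 and −0.88 at day 7, a change of −5.76 (SE 1.01, adjusted p = 0.0327). The call was lost without any one of the monocyte libraries or without microglia day 3 replicate 2 (adjusted p 0.142 to 0.522). Spp1, osteopontin, had a similar course without being called for the days, with 531 and 372 in monocytes of day 3, against 17.6 and 32.2 in microglia of day 3, and 31.4 and 64.5 in monocytes of day 7, against 22.6 and 95.5 in microglia of day 7. Its late difference of 2.06 (SE 0.54, adjusted p = 0.0339) came from day 3 (4.17, against −0.05 at day 7) and was lost in 7 of the 8 fits with a library left out.

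The late contrast was also compared with that of 16 h and day 1. By limma 1 gene (0.0122%) differed between the phases, and 443 had an unadjusted p under 0.05. The gene was Arg1, arginase 1, which uses up arginine and is a marker of alternatively activated macrophages. In the early phase Arg1 had 729 and 643 in monocytes of 16 h, against 32.9 and 62.3 in microglia of 16 h, and 1433 and 1485 in monocytes of day 1, against 231 and 164 in microglia of day 1. In the late phase it had 132, 92.9, 33.1 and 34.5 in monocytes, against 72.1, 76.4, 120 and 108 in microglia. The early difference was 3.39 (SE 0.30, adjusted p = 4.82e-09) and the late one −0.58 (SE 0.30, adjusted p = 0.341), a change of −3.97 (SE 0.42, adjusted p = 2.83e-06). Arg1 was called for the phases in every alternative, with adjusted p up to 0.0354. Other libraries of the same sorts served in the early phase, where 1.01% of all genes were called higher and 1.91% lower in monocytes. There 94 of the 104 genes higher in the late contrast had the same sign and 17 were called. Of the 77 lower genes outside the neutrophil lists, 76 had the same sign and 41 were called, and of the 32 on those lists all 32 had it and 29 were called.

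**Figure D5:**
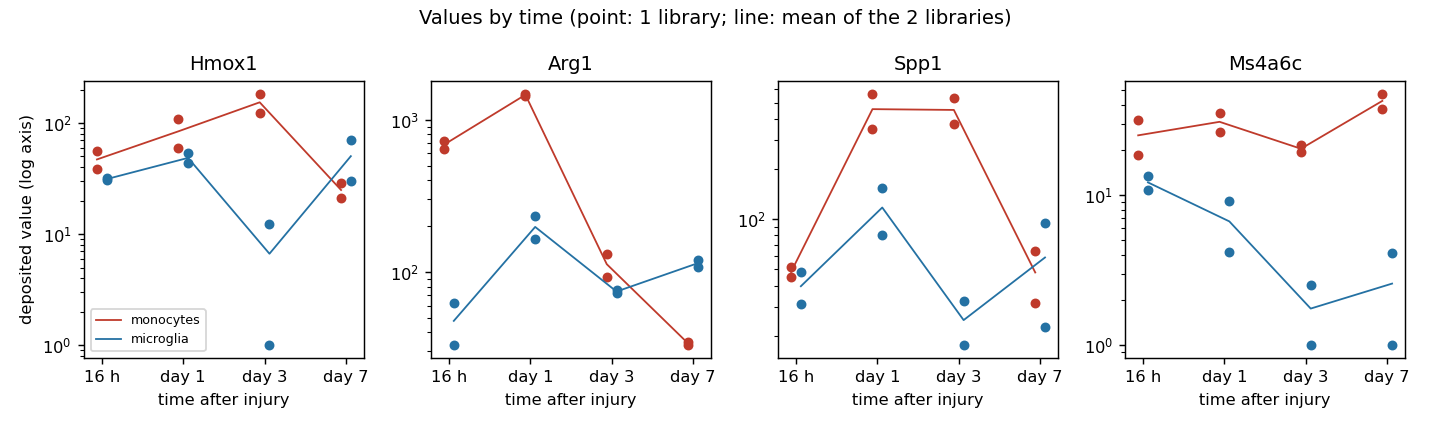
Deposited value (log axis, different in each panel) of Hmox1, Arg1, Spp1 and Ms4a6c at 16 h, day 1, day 3 and day 7 in monocytes (red) and microglia (blue); points are single libraries and lines join the means of 2. Arg1 falls below the microglia by day 7, Hmox1 and Spp1 are far apart at day 3 and their lines cross by day 7, and Ms4a6c stays apart at every time.

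The genes were then looked up in cultured cells. Bone marrow macrophages raised in M-CSF were set against microglia from newborn glial cultures at 0 h of TGFb1, in a table scaled separately, where S100a9 averaged 160 ± 5.15 in macrophages and 0.863 ± 0.194 in microglia (SD, n = 2 each). Over its 12335 genes 51.1% were called, 21.5% higher in macrophages and 29.6% higher in microglia. Of 102 genes higher in late monocytes and outside the neutrophil lists, 100 were in that table, and 52 were called higher in cultured macrophages, 23 higher in cultured microglia and 25 not called. Of 77 genes lower in late monocytes and outside those lists, 70 were in the table. Of these, 25 were called higher in cultured microglia, 21 higher in cultured macrophages and 24 not called. Over the 7713 genes of both tables, 27.1% were higher in macrophages and 23.4% in microglia. Sparc averaged 1 in cultured macrophages, with no read, and 90.2 ± 16.8 in cultured microglia (adjusted p = 1.97e-11). Olfml3 averaged 19.8 ± 10.7 in cultured macrophages and 489 ± 14.8 in cultured microglia (−4.66, SE 0.22, adjusted p = 8.32e-13). Crip1 averaged 1345 ± 5.43 in cultured macrophages and 104 ± 14.3 in cultured microglia (3.69, SE 0.17, adjusted p = 4.52e-13). These 3 genes had the same sign as in the cord. Inhba did not: it averaged 99.6 ± 6.32 in cultured macrophages and 1.65 ± 0.286 in cultured microglia (5.25, SE 0.35, adjusted p = 1.18e-10). Cx3cr1, which overlapped in the cord, averaged 29.8 ± 2.79 in cultured macrophages and 1904 ± 124 in cultured microglia (−5.95, SE 0.09, adjusted p = 1.09e-20). Cells, age and culture differ between the tables, so the contrasts are given side by side and their difference was not tested.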

How the data were processed

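RNA-seq of sorted cells was deposited as 1 table for the injured cord (21 libraries) and 1 for cultured cells (23 libraries). Reads were mapped with TopHat to mm9, per the submitters' processing notes; counter, annotation, strand handling and scaling: not given in the sources used here. Values as deposited are a normalized signal: within a library 86.5% to 90.3% of low values are whole multiples of 1 step (taken as 1 read; tolerance 0.05 of a step), and a gene with no read is listed at 1. Depth was estimated as the summed values divided by that step, leaving out genes listed at exactly 1. Intervals cover the spread between libraries. The line with no gene name held at most 0.0165% of a library and was left out. Because the unit is a scaled signal and not counts, log2(value + 1) was fitted with limma 3.58.1 in R 4.3.3 (a coefficient per cell type and time over all 21 libraries, variance trend, robust), for genes with a value of at least 1 in 2 libraries, with Benjamini-Hochberg adjustment over all genes. The cultured cells were fitted separately in the same way.

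Samples were grouped by their labels. The gene lists and the genes described were chosen with earlier results of these data known. Genes were named by these rules: the 10 largest called differences each way outside the neutrophil lists, with no overlap and a mean of at least 20; known microglia and monocyte markers; up to 4 called members per list and direction, or 2 with the smallest p where none was called; the 5 most abundant neutrophil genes; called genes of the day and phase differences; and the 4 most abundant myeloid genes whose 95% interval lies within 1 log2 unit of 0. The Ms4a and ribosomal protein genes, C1qb, Itgam, H2-Aa and H2-Eb1 were added after their values were seen, as were S100a4, Lgals1, Fcrls, GPR56, Emilin2, Hp, Ly6a and others that complete a count. Alternatives were another pseudocount, raised low values, a mean filter, quantile normalization, rescaling without neutrophil genes, no variance trend, array weights, a replicate block, voom on estimated reads, single days, the 8 libraries alone and each library left out. Gene names are as in the files, and 7465 of 8218 matched a RefSeq symbol. Promoter windows come from RefSeq on GRCm38.p6, which is not the build of the files. A few genes that these rules name are not reported here.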

Additional observations from a re-analysis of the deposited data

Results flagged for a closer look

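Of 169 groups of 4 late libraries screened, 86 of microglia and 83 of monocytes, 7 had 1 library far from the other 3, all of them microglia groups. A chance rate of about 1 in 20 groups would assume independent groups, but these groups share libraries. All but that of Cd74 stood apart through microglia day 3 replicate 2, so no conclusion about chance is drawn from the count. In microglia day 3 replicate 2, Olfml3 had a value of 213 (others 35.2 to 48.9), Cd81 one of 165 (others 28.1 to 37.4), Tpm4 one of 20.1 (others 1 to 2.64) and Stab1 one of 20.1 (others 1 to 1.76). As 1 read was worth 4.02 in that library, the values of Tpm4 and Stab1 rest on a few reads near the floor. The same library was far below the rest for S100a9, at 1507 (others 6137 to 6933), and for Camp, at 695 (others 5017 to 5385). Cd74 was lowest in day 3 replicate 1, at 384 (others 748 to 778). Day 3 replicate 2 was also the shallowest late microglia library, with an estimated 31249 reads.

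Of the contrasts that were compared between times by limma with Benjamini-Hochberg adjustment, the monocyte over microglia difference of Hmox1 changed by −5.76 between day 3 and day 7 (adjusted p = 0.0327), and that of Arg1 by −3.97 between the early and the late phase (adjusted p = 2.83e-06).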

How the results depend on the processing

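The late contrast called 213 genes. Pseudocount 5, values under 5 raised to 5, a mean of at least 10, quantile normalization, rescaling without neutrophil genes and no variance trend gave 149 to 294. Array weights gave 127 (49 higher, 78 lower), voom on estimated reads 1189 (338 higher, 851 lower), the 8 libraries alone 76 (23 higher, 53 lower), day 3 alone 75 and day 7 alone 76, and leaving out 1 library 85 to 392. Of 88 named called genes, 14 kept their call in all 21 alternatives and 41 with any 1 library left out. The day difference called 1 gene and 0 with values raised to 5, rescaling, no variance trend or voom, and 0 to 111 with 1 library left out (88 without microglia day 3 replicate 1, 111 without day 7 replicate 1, 30 without day 7 replicate 2). The phase difference called 1 gene, 5 with pseudocount 5, 4 with values raised, 3 with the mean filter, 2 with quantile normalization, 6 without the trend, 12 with voom, and 1 to 4 with 1 library left out (4 without microglia day 3 replicate 1). Deviations of same-numbered libraries correlated at −0.0105 to 0.0485. With so few reads in the microglia libraries, this check cannot tell whether replicate numbers pair the samples. With a replicate block over 16 libraries the late contrast called 219 genes and the day difference 0, and without the block over the same 16 libraries 301 and 0. Signs turned within day 3 for Ly6c2 (−0.028), Ly6c1 (−0.29), Egfl7 (0.044) and Arg1 (0.57), and within day 7 for Cx3cr1 (0.095), Spp1 (−0.048), Hmox1 (−0.88), Lyz2 (−0.11), Fth1 (−0.20) and Ms4a6d (−0.46). Ly6c1 turned with pseudocount 5 (−0.0305), values raised (−0.14) and quantile normalization (−0.0186), which centred the median of all genes and also turned Apoe (0.33) and Actb (0.73). With 1 library left out, the sign of uncalled genes turned within the range of Egfl7 (−1.81 to 0.21), Slc2a1 (−0.13 to 0.65), P2ry12 (−1.26 to 0.24), Ly6c1 (−0.74 to 0.85), Col1a1 (−1.04 to 0.28) and Ly6c2 (−0.070 to 0.32). Except where fewer libraries or genes entered a fit, the cause was not tested. Depth limits the microglia side, where 29.8% to 48.6% of genes had no read in a library.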
